A study of Mus musculus with 2 samples.

Results

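The members described here are 10 genes of RNA polymerase II and of the control of its elongation: Polr2a, Cdk9, Ccnt1, Ccnt2, Hexim1, Larp7, Mepce, Ell, Ell2 and Ell3. They were chosen by name, with earlier results of these data known, and each was looked up in the authors' deposited table of genes with POU3F1 peaks. Of the 10, 4 had a row among the 2323 genes of that table, and 6 had no assigned peak. POU3F1 is a POU-domain transcription factor. The series profiled it by CUT&RUN, in which an antibody tethers a nuclease that releases the DNA around its target for sequencing. One library was made with a POU3F1 antibody and another with rabbit IgG as the control antibody, both from retina of wild-type (WT) CD1 mouse embryos at day 14 (E14), with no transgene or treatment given in the labels. Only the peaks of the POU3F1 library were used. The IgG library was not analysed here. There were no replicates, so no value below has a replicate error and no test was run. Each library pooled all cells of the retina, and the peak list holds no expression, so the tissue label was not checked against marker genes.

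RNA polymerase II transcribes all protein-coding genes, and soon after initiation it pauses near the promoter. The kinase P-TEFb, made of CDK9 and a cyclin T, releases it into productive elongation by phosphorylating the polymerase and the pausing factors NELF and DSIF. The 7SK small nuclear ribonucleoprotein (snRNP) holds P-TEFb inactive, and ELL proteins raise the elongation rate and join P-TEFb in the super elongation complex.

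The 4 members with a peak had 1 each, and 3 of these lay at promoters. Polr2a, which encodes the catalytic subunit of the polymerase, had a promoter peak of 41.9-fold. Mepce, which encodes the capping enzyme of 7SK RNA, had one of 64.1-fold. Ell, which encodes an elongation factor, had one of 54.9-fold. Larp7, which encodes the protein that binds and stabilises 7SK RNA, had only a distant peak of 6.88-fold. Here the fold is the authors' enrichment at the summit, the highest point of a peak, over the local background, with 1 fragment added to both, so that it is lower than the plain ratio of the pileups given below and most so where they are small. A promoter peak is one whose midpoint lay within 1 kb of the transcription start site (TSS) in the deposited table. Over all 21900 protein-coding genes of RefSeq, 10.2% had an assigned peak and 0.909% had a promoter peak, which sets the scale for 4 and 3 of 10. Since the members were chosen with the peak list in view, nothing is read from these shares.

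The promoter sequences of 2 of these genes are shown because their peaks cover them whole, together with that of Ell2, the paralog of Ell without a peak. Each run is the 250 bases upstream of the RefSeq start site, from RefSeq on GRCm38.p6, the assembly of mm10. The runs are Polr2a at chr11:69758634-69758883 on the minus strand, Ell at chr8:70539425-70539674 on the plus strand and Ell2 at chr13:75707234-75707483 on the plus strand. Capitals mark the GC box GGGCGG, the CCAAT box, the TATA box TATAAA, each on either strand, and a paired half-site in Ell that is described further on.
Polr2a: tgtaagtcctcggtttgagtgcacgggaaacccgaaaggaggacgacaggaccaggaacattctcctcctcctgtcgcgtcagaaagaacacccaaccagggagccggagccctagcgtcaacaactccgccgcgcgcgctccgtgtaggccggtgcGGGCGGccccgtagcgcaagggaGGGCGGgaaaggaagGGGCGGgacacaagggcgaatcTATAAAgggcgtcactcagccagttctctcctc
Ell: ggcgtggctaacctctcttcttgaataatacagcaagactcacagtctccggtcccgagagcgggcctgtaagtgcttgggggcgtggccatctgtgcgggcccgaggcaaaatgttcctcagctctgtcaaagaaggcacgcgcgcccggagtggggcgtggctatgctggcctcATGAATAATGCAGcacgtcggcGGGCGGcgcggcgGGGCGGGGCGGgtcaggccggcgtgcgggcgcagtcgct
Ell2: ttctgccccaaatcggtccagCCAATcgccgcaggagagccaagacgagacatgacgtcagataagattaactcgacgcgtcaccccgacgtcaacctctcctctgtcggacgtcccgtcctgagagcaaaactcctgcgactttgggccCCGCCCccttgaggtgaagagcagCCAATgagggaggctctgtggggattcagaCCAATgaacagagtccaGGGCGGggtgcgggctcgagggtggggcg

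For the polymerase itself, the peak at Polr2a spanned chr11:69758560-69759458 (mm10, 899 bp), with its midpoint 372 bp upstream of the TSS by the deposited distance. Its summit lay at 69758940, which is 307 bp upstream of the RefSeq start site at 69758633. The interval covered that start site. The summit pileup was 170 fragments (95% exact Poisson interval 145 to 198), against a local background of 3.08 fragments. By fold it was the 22nd of all 2652 peaks and the 11th of the 176 promoter peaks of protein-coding genes that could be placed. Polr2a was the only gene the table paired with it. Within 200 kb of the Polr2a start site lay 3 further peaks, of 3.33-, 5.53- and 3.90-fold. They were assigned to the promoters of Atp1b2 (159 bp upstream), Fxr2 (232 bp upstream) and Tmem256 (175 bp upstream) with Nlgn2 (565 bp upstream), and none to Polr2a.

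Of the genes of P-TEFb, none of the 3 had an assigned peak. With only 3 genes and a share of 10.2% over all protein-coding genes, nothing is read from this count. Cdk9 encodes the kinase, and the nearest peak lay 350 kb from its gene body. Ccnt2 and Ccnt1, which encode alternative cyclin T subunits, were 242 kb and 705 kb from the nearest peak. None of these genes had any peak within 200 kb of its start site. For comparison, the median gap from a protein-coding gene body to the nearest peak was 616 kb (quartiles 226 and 1306 kb) over the 21631 such genes of the autosomes and chromosome X. Cdk9 and Ccnt2 thus lay nearer to a peak than the median gene, and Ccnt1 farther.

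Among the 7SK snRNP genes, the peak at Mepce had the highest fold of the 10 genes. It spanned chr5:137786476-137787811 (1336 bp), with its midpoint 480 bp upstream of the TSS by the deposited distance. The summit pileup was 334 fragments (95% exact Poisson interval 299 to 372) over a background of 4.23, and its fold was the 13th of all peaks and the 7th of promoter peaks. The table paired the same peak with Zcwpw1, a histone-reader gene transcribed in the opposite direction, 655 bp upstream of the TSS used there. The RefSeq start sites of both genes lay in the interval. The summit, at 137787081, was 380 bp upstream of that of Mepce and 76 bp upstream of that of Zcwpw1. The peak therefore lies on a shared promoter region, and which of the genes it concerns cannot be told apart from its position.

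Larp7 differed from Mepce in place and height. Its only assigned peak, at chr3:127515473-127515711 (239 bp), lay 37757 bp downstream of the TSS and 21.0 kb from the gene body. The summit pileup was 13 fragments (95% exact Poisson interval 6.92 to 22.2) over a background of 1.04, and the fold ranked 1085th. The same peak was also paired with Ank2, an ankyrin gene, at 106533 bp upstream of its TSS. No peak lay at the Larp7 promoter. A stronger peak 79.4 kb upstream of Larp7 (12.0-fold, pileup 42) was assigned to Neurog2, a proneural transcription factor gene, 412 bp upstream of its TSS. Farther upstream of Larp7 lay a peak of 4.91-fold (pileup 14) at 176 kb and the strongest within 200 kb, of 21.6-fold (pileup 43), at 197 kb. Both were paired with Alpk1 and Neurog2.

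Hexim1, which encodes the protein that inhibits P-TEFb within the 7SK snRNP, had no assigned peak. The nearest one, at chr11:103102837-103103038 (8.84-fold, pileup 17), lay 13.3 kb from its gene body. The table paired that peak with Acbd4, 1249 bp downstream of its TSS, and with Plcd3, 1279 bp upstream. The adjoining paralog Hexim2 had none assigned either, with the same nearest peak 20.2 kb away. Rn7sk, the gene of 7SK RNA itself, was 673 kb from the nearest peak. As a non-coding gene it was looked up by coordinates, not in the table.

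Among the ELL genes, Ell had the peak with the most fragments of the 10 genes. It spanned chr8:70538532-70539719 (1188 bp), with its midpoint 563 bp upstream of the TSS by the deposited distance. The summit pileup was 452 fragments (95% exact Poisson interval 411 to 496) over a background of 7.25, and its fold ranked 16th of all peaks and 9th of promoter peaks. Its summit at 70539400 was 275 bp upstream of the RefSeq start site, which the interval covered. No other gene was paired with it. The interval also held the start site of Gm51534, a long non-coding RNA gene on the opposite strand, which lay 146 bp upstream of that of Ell. The summit was 129 bp from the start site of Gm51534, inside its gene body. The paralogs showed a different picture, as neither had an assigned peak: the nearest peak was 1624 kb from Ell2 and 1832 kb from Ell3, both farther than the median gene.

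**Figure D1:**
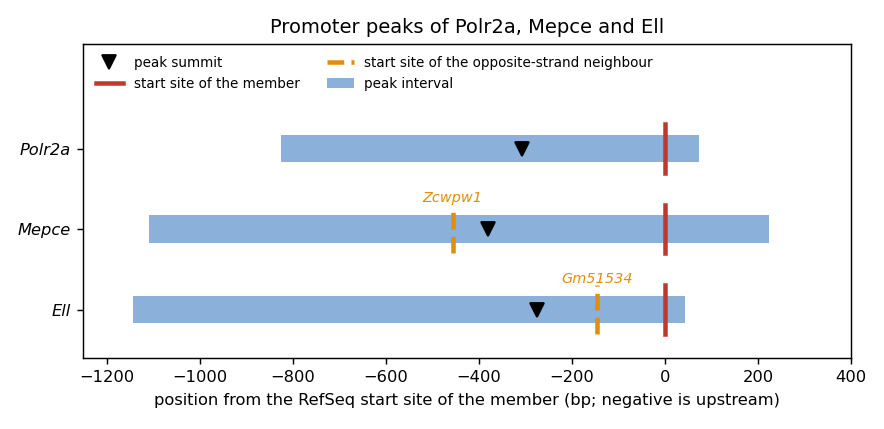
Intervals (bars) and summits (triangles) of the POU3F1 peaks at Polr2a, Mepce and Ell, by position in bp from the RefSeq start site of each gene, with negative values upstream. Summits lie 307, 380 and 275 bp upstream, every interval covers the start site of the member, and those of Mepce and Ell also cover the start site of an opposite-strand neighbour, Zcwpw1 or Gm51534.

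**Figure D2:**
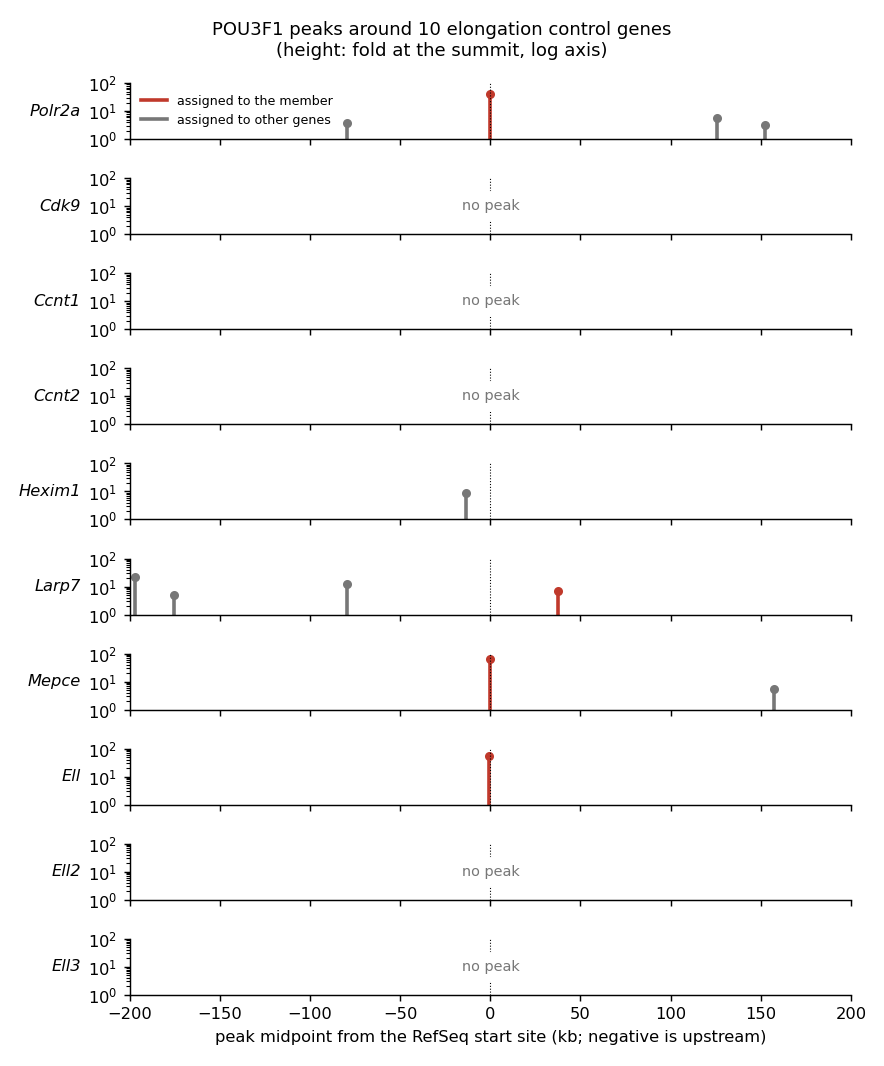
POU3F1 peaks within 200 kb of the start site of each of the 10 genes, one row a gene, with the fold at the summit on a log axis and the midpoint position in kb. Peaks assigned to the gene are red and those assigned to other genes grey, and Cdk9, Ccnt1, Ccnt2, Ell2 and Ell3 have no peak in the window.

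The 3 promoter peaks were long, as were most promoter peaks of high fold, and had their summits upstream of the TSS. Their summits lay 302 (Polr2a), 417 (Mepce) and 289 bp (Ell) upstream of the TSS that the deposited distances imply. Among all 176 placed promoter peaks the summit was upstream in 132 (75%), with a median of 140 bp upstream and quartiles of 250 and 4.5 bp upstream. Measured from the TSS of the member, each of the 3 was farther upstream than the middle range. For the peak that Mepce shares with Zcwpw1 this depends on the start site taken. Its summit was 76 bp upstream of the RefSeq start site of Zcwpw1, within that range. Their lengths of 899, 1336 and 1188 bp stand beside a median of 346 bp for promoter peaks, of which 20 (11.4%) reached 850 bp. Among the 12 promoter peaks of 40-fold or more, these 3 included, 10 reached that length. Rras and Prrc2a, among the 12, had summits 344 and 378 bp upstream. The pileups of 170 (Polr2a), 334 (Mepce) and 452 (Ell) stand beside a median of 33 for promoter peaks. An interval covering a start site was found for 97 of the 176 (55.1%). The local background of 3.08, 4.23 and 7.25 fragments compares with medians of 3.08 at promoter peaks and 1.61 over all peaks with a recovered pileup. These are descriptions of peaks picked with their height known.

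In the order of fold, the neighbours of these peaks among promoter peaks were genes of other functions. Just above Mepce stood Rras, a Ras-family GTPase gene, with 90.8-fold and Gtpbp1 with 86.1-fold, and just below it Prrc2a with 63.9-fold. Between Ell and Polr2a stood a single peak of 53.2-fold shared by Emc10 and Fam71e1. Below Polr2a followed Gadd45a, a stress and DNA-demethylation factor gene, with 40.5-fold and Cables2 with 38.2-fold. Of all peaks, 23 (0.867%) reached 40-fold, and 12 of these were promoter peaks, among them those of Mepce, Ell and Polr2a. The fold of Larp7 was close to the median of 6.37 over all peaks, while its pileup of 13 was at the lower quartile (13, with a median of 19).

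**Figure D3:**
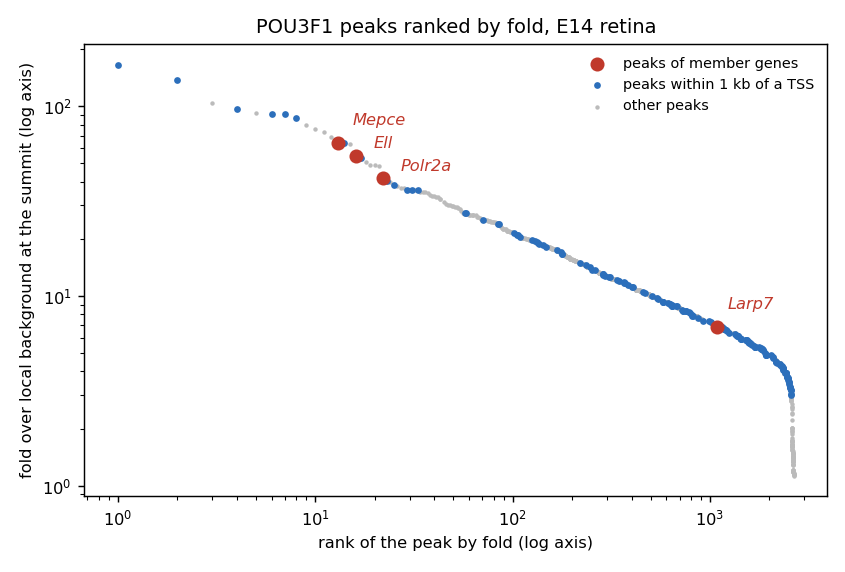
Fold at the summit against rank by fold for all 2652 POU3F1 peaks, both on log axes, with peaks within 1 kb of a TSS in blue and peaks of the 10 genes in red. Mepce, Ell and Polr2a rank 13th, 16th and 22nd, and Larp7 ranks 1085th.

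The promoter windows of the members held no octamer. POU factors bind the octamer ATGCAAAT (on the other strand ATTTGCAT) and relatives of it. RefSeq promoter windows of 300 bases, 250 upstream to 50 downstream of the start site, matched 9 of the 10 members by symbol, all but Mepce. Of these 9 members, only Polr2a and Ell had a promoter peak. The exact octamer on either strand was in 0 of the 9 windows, ATGCNAAT in 0, and the octamer with at most 1 mismatch in 0. With so few windows, nothing is read from these counts. In the 213 windows of genes with a promoter peak these were found in 18.3%, 24.9% and 37.6%, and over all 21263 windows of protein-coding genes in 1.66%, 2.92% and 16.4%. Histone genes are part of the set with a promoter peak, and without them 28 of 180 windows (15.6%) held the exact octamer. The windows of Polr2a and Ell do not reach the summits, which lay 57 and 25 bases beyond their upstream edge, so the bases under the summits were not read.

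One pattern related to POU sites was found in Ell. POU proteins can also bind as pairs to 2 adjoining half-sites. A search was made for 2 copies of ATGNAT in the same orientation (both ATNCAT on the other strand). With 0, 1 or 2 bases between and at most 1 mismatch over both, a match was found in Ell alone of the 9 windows. Half-sites in opposite orientation were not searched for as such. The match in Ell reads ATGAATAATGCAG and lies 74 to 62 bases upstream of the start site, within the peak interval. It is not under the summit, which lay 275 bp upstream of the start site. This search was chosen after the sequence had been seen. Such matches were in 7.98% of windows of genes with a promoter peak and in 4.30% of all protein-coding windows. Ell2 and Ell3 had none.

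No common promoter element searched was found in Polr2a and Ell and in no other member. GGGCGG or its complement CCGCCC was in all 9 windows, against 46.2% of all windows and 59.2% of windows of genes with a promoter peak. There were 3 copies upstream of both Polr2a and Ell, of which 2 in Ell overlap by a base. TATAAA (on the other strand TTTATA) was in the window of Polr2a alone of the 9, 33 to 28 bases upstream of the start site. It was in 12.6% of all windows and 15.5% of windows of genes with a promoter peak. Only that exact string was counted, and looser forms, such as TATATAA in the window of Hexim1, were not. CCAAT or ATTGG was in 6 windows, those of Cdk9, Ccnt2, Hexim1, Larp7, Ell2 and Ell3, and in 38.2% of all windows. It was in neither Polr2a nor Ell, nor in Ccnt1, although 57.7% of windows of genes with a promoter peak held it. GC content was 63.7% for Polr2a and 66.3% for Ell, and 59.7 to 78.3% over all 9 windows, against a median of 56.3% for all windows (quartiles 48.3 and 64.7%). A match is only a run of letters, and binding of any factor to it was not measured.

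A wider list of 62 genes of the polymerase and its elongation control, which holds the 10 members, had no other promoter peak. Of the 62, 7 (11.3%) had an assigned peak, against 10.2% of protein-coding genes, and 3 (4.84%) had a promoter peak, against 0.909%. The 3 are the members already described, whose choice rested on this peak list. Of the other 52 genes, 3 (5.77%) had an assigned peak and 0 a promoter peak. Among the 13 polymerase subunit genes, only Polr2a had a peak. The 6 genes of DSIF and NELF, which set the pause, had none. Nor had the 12 genes of later elongation and passage through chromatin, such as those of the PAF complex and the histone chaperone FACT. These groups are small beside a share of 10.2% over all protein-coding genes, so nothing is read from their counts.

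The assigned peaks of the other 52 genes were all distant. Mllt3, which encodes a reader subunit of the super elongation complex, had a peak of 7.37-fold in its gene body, 149838 bp downstream of the TSS (chr4:87883410-87883643, pileup 14), also paired with Slc24a2. Ice2, a subunit gene of the little elongation complex that serves small nuclear RNA genes, had one of 7.30-fold 702499 bp upstream (pileup 21). That peak lay only 41621 bp downstream of the TSS of Rora, an orphan nuclear receptor gene. Ccnh, the cyclin gene of the kinase that phosphorylates the polymerase at initiation, had 7 peaks from 120952 to 841244 bp upstream. Their folds ran from 4.27 to 18.1, with the strongest at chr13:84347922-84348407 (pileup 101). All 7 were also paired with Tmem161b. Distance is what the assignment of these peaks rests on, and no measurement here ties them to the gene.

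**Figure D4:**
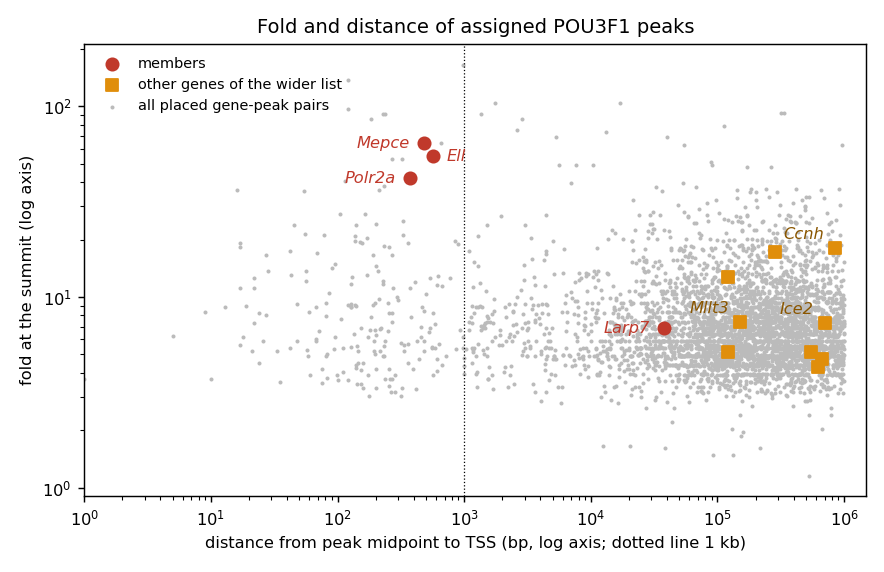
Fold at the summit against distance from the peak midpoint to the TSS, both on log axes, for all placed pairs of genes and peaks (grey), the other genes of the wider list (orange) and the 10 members (red). Mepce, Ell and Polr2a lie left of the 1 kb line with 41.9- to 64.1-fold, while Larp7, Mllt3, Ice2 and Ccnh lie between 37757 and 841244 bp.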

How the data were processed

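Per the submitters' processing notes, reads were handled with Bowtie2, MACS2 and deepTools (versions not given in the sources used here) on mm10. The authors' deposited list of 2652 narrow peaks gave each interval a fold (a ratio of summit to local background pileup, each with 1 added, the form in which the recovered pileups give the deposited values), the −log10 of the p-value and q-value, and a score, which was not used. The file name gives a false discovery rate of 0.05. The deposited gene table (4427 pairs) came from GREAT 4.0.4, per the file headers, with domains of 5000 bp upstream and 1000 bp downstream extended up to 1000000 bp; its signed distances in bp are a deposited text column.

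Coordinates count from 1. Genes were matched to RefSeq GRCm38.p6 by symbol (2184) or synonym (87), 52 not at all. Distances were put on peaks by finding the TSS that sets all distances of a gene on peak midpoints (4306 pairs, 97.3%). Library depth is unknown; summit pileups were recovered from fold and p-value, and for 2608 peaks (98.3%) a whole number gave the p-value within 0.001. Recovery and placement were tested on data simulated with the same formulas, which shows only that the steps can be reversed. The simulated backgrounds stayed below that of Ell. Poisson intervals cover counting error only. Python 3.11.15, pandas 2.3.3 and scipy 1.17.1 were used. Members and gene lists were chosen with earlier results of these data known. Genes named were the members, genes of the wider list with a peak, genes sharing those peaks and neighbours in the order of fold; genes near other peaks were named after their values were seen. Proteins were not used.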

Additional observations from a re-analysis of the deposited data

How the results depend on the processing

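No paired analysis was possible because each antibody had 1 library, and for the same reason no replicate could be left out. The count of 4 members with an assigned peak held within 50 kb of the TSS and at a q-value under 0.01 or 0.001. It was 3 within 5 kb, without Larp7. When only the gene with the nearest TSS counted, it was 4 by the deposited distances. These put the shared peak nearer to Mepce (480 bp) than to Zcwpw1 (655 bp). By RefSeq start sites its midpoint and summit lay nearer to Zcwpw1 (summit at 76 bp) than to Mepce (summit at 380 bp). Whether Mepce counts under that setting therefore depends on the TSS taken. The count of 3 promoter peaks was 2 with the midpoint within 500 bp, where Ell fell outside, and 3 under the other settings. In the wider list, 7 genes with an assigned peak became 4 within 50 kb and 3 within 5 kb. Over all protein-coding genes, 2231 with an assigned peak became 803 within 50 kb, 306 within 5 kb and 1478 with the nearest TSS alone. Of these genes, 199 had a promoter peak, and this became 306 within 5 kb and 104 when the interval had to cover the TSS. The motif count in member windows was 0 for each form of the octamer and 1 for the paired half-sites. Peaks of few fragments, such as that of Larp7, are the least certain in height. No separate value of the IgG library was set beside these peaks. Whether that library entered the local background, and so the fold, was not determined. Signal without the POU3F1 antibody at the promoters of Polr2a, Mepce and Ell was therefore not tested.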

Other observations

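Other groups of the transcription machinery were taken by gene symbol after the data were seen. Over all protein-coding genes, 10.2% had an assigned peak and 0.909% a promoter peak. Of 33 Mediator genes, 3 (9.09%) had an assigned peak, and those of Med16 (4.90-fold, 58 bp downstream of the TSS) and Med19 (5.46-fold, 128 bp upstream) lay at the promoter. Of 15 Integrator genes, whose products process small nuclear RNAs and end paused transcription, 2 (13.3%) had a peak, both at the promoter: Ints6 (4.39-fold, 140 bp upstream) and Ints6l (6.30-fold, 200 bp upstream). Of 7 Gtf3 genes, which encode general factors of RNA polymerase III, 2 (28.6%) had an assigned peak. Gtf3c6 had one at the promoter (8.29-fold, 572 bp upstream) and another 1265 bp upstream (3.38-fold), and Gtf3c4 had one 42316 bp downstream (11.3-fold). Of 36 Gtf2 and Taf genes, most of them general transcription factor genes, 5 (13.9%) had an assigned peak and 0 a promoter peak. Of the 5 genes with Polr1 symbols, only Polr1d had a peak (4.58-fold, 78468 bp downstream), and of the 10 Polr3 and 5 Snapc genes none had one. The Polr1 and Polr3 groups follow the symbols, and subunits shared by RNA polymerases I and III were not set apart. The median fold of all placed promoter peaks was 6.92.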
